A study of Mus musculus with 16 samples.

Results

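The interferon response and antigen presentation genes examined here are 46 mouse genes that interferons induce or that serve the display of peptides on MHC class I. They were taken by gene symbol: every probe that the array design assigns to one of these 46 symbols was kept, on all 16 arrays. This gave 46 of the 28095 gene names and 73 of the 41174 probes on the array, of which 69 passed the background filter on 1 array or more and entered the tests. By role, 10 genes are sensors of foreign RNA or DNA and enzymes of the OAS family, 4 are transcription factors, 19 are antiviral effectors and regulators, 5 are interferon-inducible GTPases and 8 belong to class I antigen presentation. All 46 passed the background filter and 31 of them were well above background on all 16 arrays. Mx1 passed through the fibroblast array alone.

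The arrays come from a study that reprogrammed mouse embryonic fibroblasts (MEFs) with human artificial chromosomes (HACs), vectors that replicate beside the host chromosomes. The iHAC1 vector carries a pair of cassettes with Klf4, c-Myc, Sox2 and Oct4 under the CAG promoter, and iHAC2 carries the same cassettes, further copies of Oct4 and an H1 promoter-driven short hairpin RNA (shRNA) against p53. Each clone or line was hybridised once. The group iHAC1-iPS has 4 clones, in the order 1-A3, 1-B, 1-C3 and finally 1-D6. iHAC2-iPS has 4, in the order 2-B1, 2-C6, 2-E and finally 2-N. The 4 iHAC-free iPS clones, F-B1, F-C5, F-E4 and lastly F-N7, were sorted from iHAC2-iPS lines as EGFP-negative cells that had lost the vector. There are 2 embryonic stem (ES) cell lines, B6ES and TT2, 1 retroviral iPS line (20D17) and 1 MEF sample. The MEFs, B6ES and all HAC-derived clones are C57BL/6, TT2 is C57BL/6 x CBA, 20D17 is C57BL/6 x DBA, and every sample was grown without added interferon as far as the labels and methods state. ES cells and HAC clones were kept on mitomycin C-treated MEF feeder layers, and whether feeders were removed before RNA was prepared is not given in the sources used here. Each HAC line descends from 1 colony, so the spread within a group is between clones, and no clone was measured again. During reprogramming the fibroblasts were treated with miR-294 and miR-295 mimics.

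Interferons bind receptors that activate the JAK kinases and STAT transcription factors. Type I interferon signals through ISGF3, a complex that holds Stat2 and Irf9 and binds the interferon-stimulated response element (ISRE), and interferon gamma acts through GAS elements and induces Irf1, which in turn drives class I presentation genes. Double-stranded RNA and some short hairpin RNAs can set off this response in differentiated cells, while pluripotent cells are known for a weak response. The iHAC2-iPS clones carry an shRNA construct, whose expression was not measured here. The iHAC-free clones have lost it together with the reprogramming factors of the vector. This pair of groups was therefore compared first.

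Levels are log2 processed signals less the array's own 75th percentile, and all differences are differences of these levels on the log2 scale. A gene was read by its brightest probe, and "called" means a Benjamini-Hochberg adjusted p under 0.05 by limma over all 31423 tested probes together with a change of at least 2-fold. Values for a group follow the order of the clones given above, with B6ES before TT2. "At background" means not flagged by the scanner software as well above background. Between 54.2% and 65.8% of spots were well above background per array. The iHAC2-iPS and iHAC-free arrays were scanned in a session of their own, apart from the other arrays, so that session and group cannot be told apart where either is set against ES or iHAC1-iPS. Both share slides, so that their own difference does not have this limit. Probes that were well above background on no array had median levels of -7.07 to -6.30 in iHAC2-iPS, -7.47 to -7.00 in iHAC-free, -7.79 to -7.53 in ES and -7.70 to -7.32 in iHAC1-iPS, so a gene near background reads higher in iHAC2-iPS without any change of its own.

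The labelled cell types were checked by markers. The mean level of 7 pluripotency genes (Esrrb, Zfp42, Dppa3, Tdgf1, Dppa5a, Utf1 and Pou5f1) was 3.96 to 4.33 in ES, 3.01 to 4.11 in iHAC2-iPS and 3.85 to 3.89 in iHAC-free clones, but -2.53 to 0.25 in iHAC1-iPS and -5.74 in MEFs over the 6 with a value there. Nanog, also on the marker list, is not among these 7, and Pou5f1 is also carried by the vectors. In iHAC1-iPS, Zfp42 and Esrrb were well above background on 2 of 4 arrays each and Dppa3 on 1 of 4. The mean hides single genes in iHAC2-iPS. There the 7 genes differed from ES by -3.08 to 1.15, with 1 called lower. From iHAC-free clones they differed by -2.48 to 2.35, with 1 called higher. The mean of 8 fibroblast genes (collagens, Dcn, Lum, Postn and Thy1) was 4.53 in MEFs, 3.38 to 4.41 in iHAC1-iPS, 2.02 to 4.12 in iHAC2-iPS, 2.91 to 4.04 in iHAC-free and 1.48 to 2.75 in ES, with all 8 genes well above background on every array. The mean of 8 leukocyte genes lay between -3.44 and -1.69, with the highest in MEFs. The iHAC1-iPS clones thus stood apart from the other iPS clones in the mean of the pluripotency genes, and fibroblast transcripts were present throughout. In bulk RNA, fewer cells of a type and less RNA per cell cannot be told apart.

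Promoter windows of 6 genes that recur below are shown because they hold the letters that interferon-activated factors are known to bind. Of the 46 genes, 35 had at least 1 window in the RefSeq promoter table used here (40 windows, GRCm38.p6). The ISRE core GAAANNGAA, searched on both strands, was in 20 of the 40 windows against 8.56% of all 32851 windows of 300 bases. The GAS letters TTCNNNGAA were in 9 of 40 against 8.30%, and the kappaB letters GGGATTCC in 4 of 40 against 1.06%. These 4 windows belong to 3 genes, since overlapping windows of H2-K1 hold the same site. Matches of the ISRE core spaced by 6 bases share letters. Capitals mark any of the 3 motifs in the 250 bases before each gene's start, written 5′ to 3′ on the gene's strand.
Oas1a, chr5:120907526-120907775, minus strand: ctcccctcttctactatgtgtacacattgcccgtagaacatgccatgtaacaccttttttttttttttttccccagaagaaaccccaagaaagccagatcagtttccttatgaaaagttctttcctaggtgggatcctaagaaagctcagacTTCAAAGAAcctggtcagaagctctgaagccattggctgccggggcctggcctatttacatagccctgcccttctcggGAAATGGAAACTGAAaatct
Trim25, chr11:88999153-88999402, plus strand: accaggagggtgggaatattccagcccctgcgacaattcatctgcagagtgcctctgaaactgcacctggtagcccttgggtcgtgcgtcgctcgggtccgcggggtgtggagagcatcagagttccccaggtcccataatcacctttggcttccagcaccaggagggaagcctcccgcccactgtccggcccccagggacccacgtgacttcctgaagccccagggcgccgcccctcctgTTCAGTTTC
Ifit3, chr19:34583279-34583528, plus strand: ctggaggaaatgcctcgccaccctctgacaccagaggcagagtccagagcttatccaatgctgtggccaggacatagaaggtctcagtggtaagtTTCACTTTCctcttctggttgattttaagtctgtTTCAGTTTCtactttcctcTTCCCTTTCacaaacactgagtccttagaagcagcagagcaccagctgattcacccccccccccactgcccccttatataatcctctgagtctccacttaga
Gbp2, chr3:142620413-142620662, plus strand: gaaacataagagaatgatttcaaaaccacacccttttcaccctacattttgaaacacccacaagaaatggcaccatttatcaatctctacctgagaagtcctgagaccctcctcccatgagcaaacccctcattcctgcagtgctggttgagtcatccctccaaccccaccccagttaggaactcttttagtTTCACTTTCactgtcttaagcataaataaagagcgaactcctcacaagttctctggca
Irf1, chr11:53769764-53770013, plus strand: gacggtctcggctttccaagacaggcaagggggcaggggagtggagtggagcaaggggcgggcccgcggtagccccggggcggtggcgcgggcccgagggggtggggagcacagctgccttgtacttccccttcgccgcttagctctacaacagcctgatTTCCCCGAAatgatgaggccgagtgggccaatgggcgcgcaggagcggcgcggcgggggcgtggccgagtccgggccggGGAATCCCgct
Psmb8, chr17:34197945-34198194, plus strand: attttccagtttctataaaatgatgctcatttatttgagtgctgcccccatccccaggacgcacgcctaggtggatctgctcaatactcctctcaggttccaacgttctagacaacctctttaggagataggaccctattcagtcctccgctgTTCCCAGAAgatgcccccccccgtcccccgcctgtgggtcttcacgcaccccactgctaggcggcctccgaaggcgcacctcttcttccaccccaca

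Oas1a, Trim25, Ifit3 and Gbp2 hold the ISRE core, with 2 overlapping matches in Oas1a and 3 separate ones in Ifit3, and Oas1a also holds the GAS letters. Irf1 and Psmb8 hold the GAS letters without the ISRE core, and Irf1 holds the kappaB letters 11 bases before its start. Windows of Ifitm1, Psmb9, Psmb10, Tapbp and Oasl2 held none of the 3, which says only that these letters are not in those windows.

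In most of these genes the fibroblasts stood above every other sample. The MEF array was the highest of 16 in 33 of 46 genes, against 19.3% of all tested probes, and 39 of the 46 were at least 2-fold higher in MEFs than in the mean of both ES lines, with a median log2 difference of 2.92 against -0.13 over all tested probes. Usp18, which removes Isg15 from its targets, read 3.86 in MEFs and -5.76 and -3.11 in ES lines, and Isg15, the ubiquitin-like modifier, read 4.75 against -3.23 and -1.83. Ifitm1, a membrane protein that restricts virus entry and is known from pluripotent cells, went the other way at -1.32 in MEFs against 3.21 and 3.90. Irf1 was also lower in MEFs, at 2.90 against 4.20 and 4.07. These are single arrays and carry no test.

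**Figure D1:**
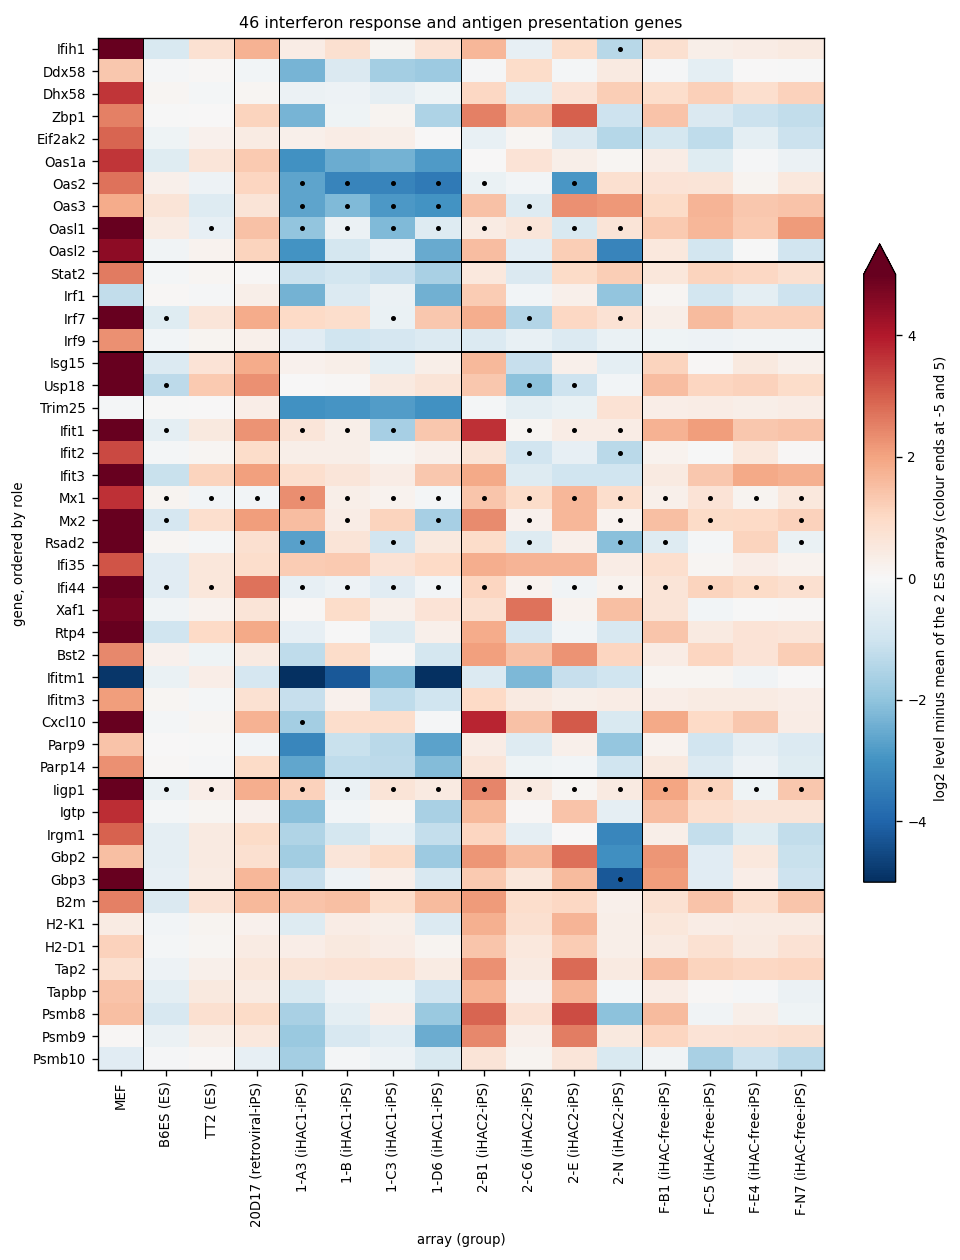
Log2 level of the 46 genes on each of the 16 arrays (columns) after subtracting the mean of both ES arrays, ordered by role with black lines between roles; black dots mark values not well above background. The MEF column is darkest red in most rows, the 4 iHAC1-iPS columns are blue for Oas1a, Oas2, Oas3, Trim25 and Ifitm1, and the 4 iHAC2-iPS columns differ among themselves.

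The ES lines themselves differed. TT2 was above B6ES in 35 of 46 genes, against 43% of tested probes, and at least 2-fold above it in 12, among them Usp18 (2.65 higher on the log2 scale), Ifit3 (2.20) and Rtp4 (2.00), a chaperone-like interferon-induced gene. Oas3 was more than 2-fold lower in TT2. The lines differ in strain, and with 1 array each the difference has no replicate check. Every comparison with ES below rests on these arrays.

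Loss of the iHAC2 vector, and with it of the shRNA construct and the added reprogramming factors, went with no called change in any of the 46 genes. In iHAC2-iPS against iHAC-free clones, 0 genes were called higher and 0 lower by limma, where 0.213% of all tested probes were called higher and 0.601% lower. These shares stand for 67 and 189 probes, which became 38 and 101 with the parental line as a replicate block, again with 0 of the 46 genes. At an unadjusted p under 0.05 there were 7 genes. The median log2 difference of the 46 genes was -0.02 against 0.04 over all tested probes, with 22 positive and 24 negative. A single gene, Mx1, lay wholly above and 3 (Oasl1, Ifitm1 and Irf9) wholly below the iHAC-free arrays without overlap, against 6.53% and 4.74% of tested probes. Mx1 was at background on every array of both groups, where background itself read higher in iHAC2-iPS, so its position is not read as a change. The 95% confidence interval stayed within 2-fold in either direction for 7 genes, and its half-width ran from 0.30 to 2.61 with a median of 1.15, so for most of the 46 genes a change of 2-fold was not detectable with 4 clones a group. A p above the threshold does not show that the groups were alike.

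Each iHAC-free clone was derived from the iHAC2-iPS clone it is paired with here, and the pairs did not differ in one direction. The median over the 46 genes was 0.59 for 2-B1 minus F-B1 and 0.34 for 2-E minus F-E4, but -0.35 for 2-C6 minus F-C5 and -0.62 for 2-N minus F-N7. Of the 46 genes, 35 were higher in 2-B1 than in F-B1 and 14 higher in 2-N than in F-N7. Positive differences in all 4 pairs were found for 6 genes (Zbp1, Mx1, Ifi35, Xaf1, Tapbp and Psmb10), 13.0% against 16.5% of tested probes, and negative ones for 4 (Oasl1, Irf9, Usp18 and Ifitm1), 8.70% against 9.55%. Among these, Mx1 was at background on every array of both groups. The 2 slides each held 2 of the pairs and gave medians of -0.01 and 0.14.

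The 5 genes with the largest positive differences were a sensor, an immunoproteasome subunit and 3 effectors. Zbp1, a sensor of Z-form nucleic acid, read 0.42, -0.62, 0.89 and -3.12 in iHAC2-iPS and -0.67, -2.84, -3.17 and -3.31 in iHAC-free clones, a difference of 1.89 ± 0.87 (SE) (adjusted p = 0.27, limma). The pairs of 2-E and 2-C6 differed most, while 2-N stood close to F-N7. Psmb10, a catalytic subunit of the immunoproteasome, read 5.77, 5.24, 5.73 and 4.36 against 4.94, 3.50, 4.06 and 3.78, a difference of 1.21 ± 0.41 (SE) (adjusted p = 0.17, limma). Xaf1, a pro-apoptotic interferon target, read -2.82, -0.88, -3.43 and -2.08 against -2.97, -3.75, -3.63 and -3.55, a difference of 1.17 ± 0.44 (SE) (adjusted p = 0.2, limma). Here 2-C6 was the high array, 2.87 above F-C5. Ifi35, an interferon-induced leucine zipper protein, read 0.91, 0.82, 0.80 and -0.52 against -0.04, -0.80, -0.57 and -0.73, a difference of 1.04 ± 0.34 (SE) (adjusted p = 0.16, limma). Clones 2-B1, 2-C6 and 2-E lay above all iHAC-free clones and 2-N among them. Without 2-N Ifi35 was called, at 1.38 ± 0.27 (SE, adjusted p = 0.016, limma). Of all tested probes, 358 were called higher in that fit, against 67 with all clones. Bst2, the tetherin that holds budding virus at the cell surface, read 5.92, 5.35, 6.13 and 4.97 against 4.27, 4.97, 4.55 and 5.11, a difference of 0.87 ± 0.43 (SE) (adjusted p = 0.3, limma), with 2-N inside the range of the iHAC-free clones.

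The 5 largest negative differences were in 3 effectors and 2 genes of the OAS family. Usp18 read -3.09, -6.48, -5.45 and -4.56 in iHAC2-iPS, where 2-C6 and 2-E were not well above background, and -2.89, -3.35, -3.27 and -3.53 in iHAC-free clones, a difference of -1.63 ± 0.65 (SE) (adjusted p = 0.22, limma). Ifit3, which stabilises the RNA-binding Ifit1, read -1.52, -4.07, -4.41 and -4.42 against -2.97, -2.06, -1.52 and -1.65, a difference of -1.55 ± 0.65 (SE) (adjusted p = 0.24, limma). In both genes 2-B1 lay among or level with the iHAC-free clones and the other iHAC2 clones below them. Oasl1, an OAS-like protein that limits Irf7 translation, read -5.17, -4.97, -6.34 and -4.92, against -4.29, -3.91, -4.26 and -3.44 in iHAC-free clones. The fitted difference was -1.37 (adjusted p = 0.16, limma). Oasl1 was at background on every iHAC2-iPS array, so this difference is uncertain and no minimum fold is given. Ifitm1 read 2.86, 1.29, 2.40 and 2.57 against 3.66, 3.67, 3.37 and 3.58, a difference of -1.29 ± 0.57 (SE) (adjusted p = 0.25, limma), and the groups did not overlap. Oas2, a synthetase of 2-5A, the second messenger that activates RNase L, read -4.45, -4.24, -7.01 and -3.30 against -3.40, -3.45, -3.96 and -3.56, a difference of -1.16 ± 0.59 (SE) (adjusted p = 0.32, limma), with 2-B1 and 2-E not well above background and 2-N above all iHAC-free clones. Without 2-B1, 1 further gene, Ifit2, was called lower in iHAC2-iPS at -1.09 ± 0.21 (SE, adjusted p = 0.047, limma).

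**Figure D2:**
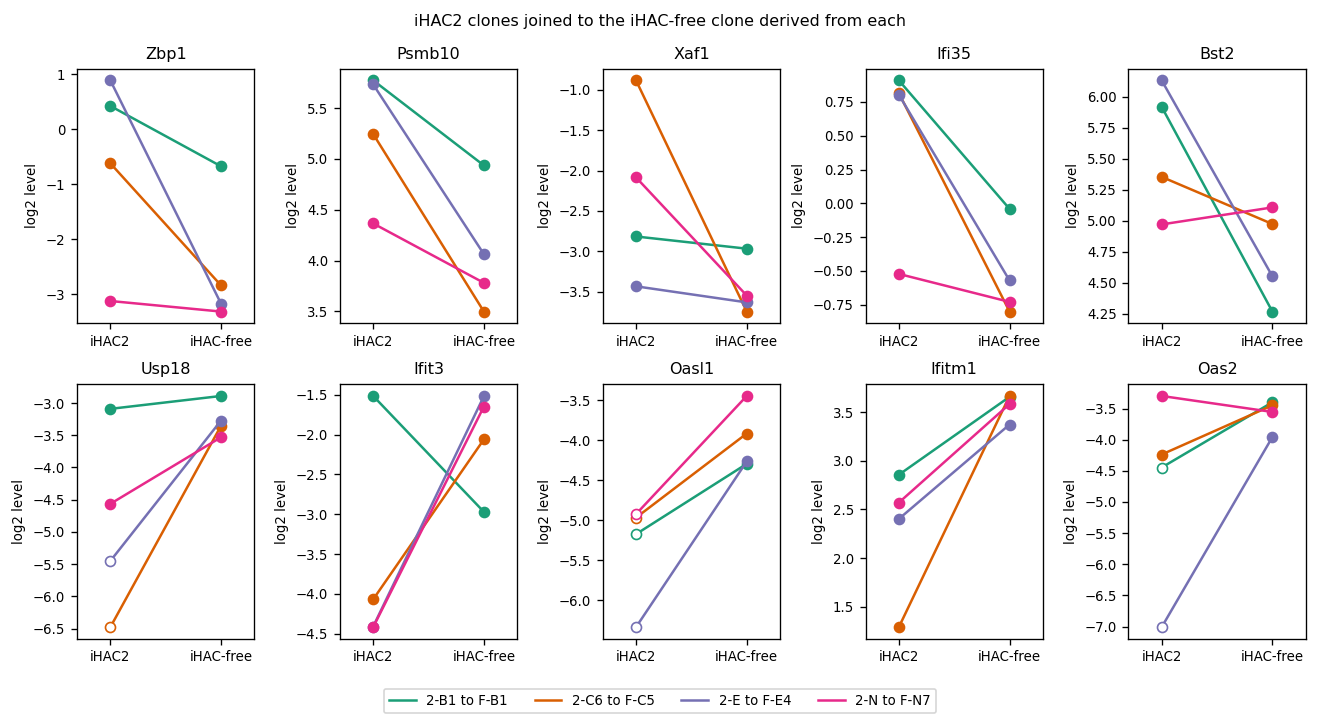
Log2 level of the 5 genes with the largest positive (top row, Zbp1 to Bst2) and the 5 with the largest negative (bottom row) difference between iHAC2-iPS and iHAC-free clones; a line joins each iHAC2 clone to the iHAC-free clone derived from it, and open circles are not well above background. The lines of Bst2, Ifit3 and Oas2 run both ways and those of the other panels one way, and 2-C6 carries the steepest line for Xaf1.

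Of the 8 antigen presentation genes 7 had positive differences between iHAC2-iPS and iHAC-free clones, with a median of 0.66. Of 19 effectors 12 had negative ones, with a median of -0.39. The median over all tested probes was 0.04, and no gene of either role was called. The presentation genes were all higher in 2-B1 than in F-B1 and in 2-E than in F-E4. Only H2-K1, Tapbp, Psmb8 and Psmb10 were higher in 2-C6 than in F-C5, and only Tapbp and Psmb10 higher in 2-N than in F-N7. Tapbp, or tapasin, which bridges class I molecules to the peptide transporter, read 4.04, 2.53, 4.02 and 2.20 in iHAC2-iPS and 2.70, 2.36, 2.26 and 2.03 in iHAC-free clones, a difference of 0.86 ± 0.41 (SE) (adjusted p = 0.29, limma), with 2-B1 and 2-E above all iHAC-free clones and 2-C6 and 2-N among them.

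The iHAC2-iPS clones differed more among themselves than did the iHAC-free clones. Over the 31 genes well above background on all 12 HAC-line arrays, the SD across 4 clones had a median of 0.88 in iHAC2-iPS, 0.49 in iHAC1-iPS and 0.35 in iHAC-free clones. It was larger in iHAC2-iPS than in iHAC-free clones for 30 of 31 genes. The same held widely on these arrays, since the median SD over 20104 probes was 0.33 in iHAC2-iPS, 0.21 in iHAC1-iPS and 0.17 in iHAC-free clones and 85.6% of those probes varied more in iHAC2-iPS. Gbp2, a guanylate-binding protein of the interferon gamma response, read 1.46, 0.85, 2.02 and -3.82, so that 2-N lay far below the other clones.

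An order of the clones that recurred, noticed in these data and therefore given without a test, placed 2-B1 and 2-E above 2-C6 and 2-C6 above 2-N. It held in 15 of the 31 genes well above background on all iHAC1-iPS and iHAC2-iPS arrays, against 10.4% of 20143 probes. These were Zbp1, Oasl2, Irf1, Bst2, Parp9, Parp14, Igtp, Irgm1, Gbp2, B2m, H2-K1, H2-D1, Tapbp, Psmb8 and Psmb10. Irf1 itself read 5.40, 3.98, 4.40 and 2.17 and Psmb8, another immunoproteasome subunit, 2.71, 0.53, 3.07 and -2.24. The iHAC-free clones lay closer together, at 4.22, 3.22, 3.64 and 3.08 for Irf1 and 1.38, -0.36, 0.11 and -0.40 for Psmb8, with F-B1 highest in both. Fibroblast markers were also highest in 2-B1, at 4.12, and lowest in 2-N, at 2.02, with 2-C6 at 2.92 and 2-E at 3.13, and their part in this order was not tested.

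**Figure D3:**
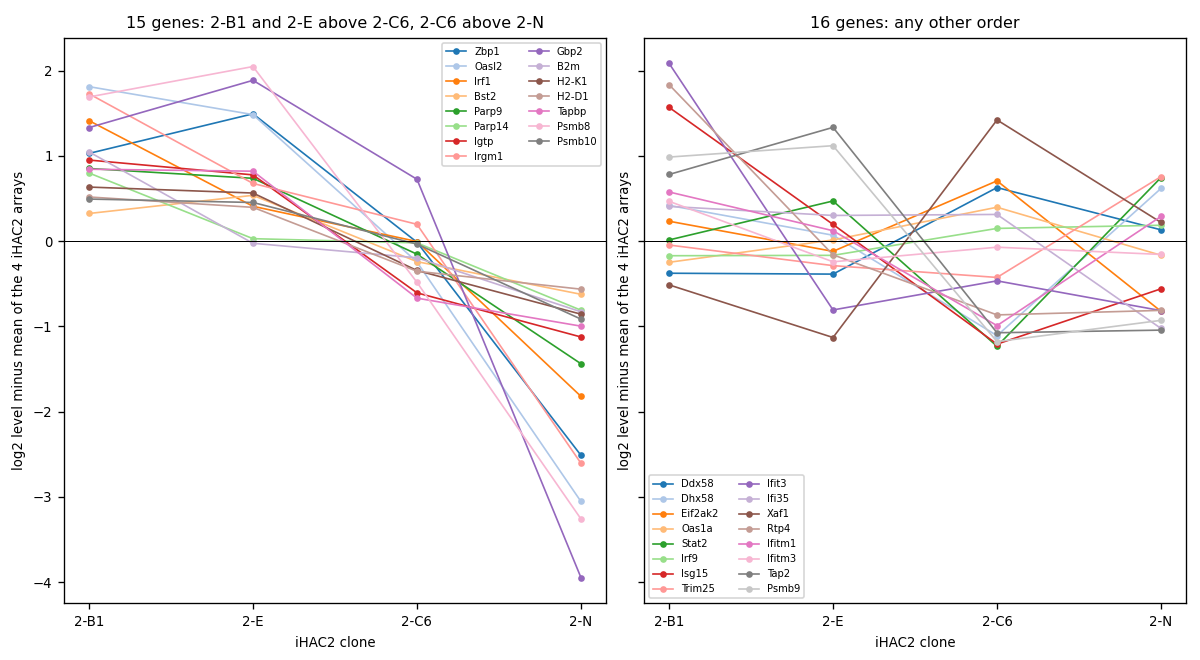
Log2 level of 31 genes in the 4 iHAC2 clones (x axis) after subtracting the mean of those 4 arrays, with 1 line per gene. The left panel holds the 15 genes in which 2-B1 and 2-E lay above 2-C6 and 2-C6 above 2-N, chosen for that order, with Gbp2 and Psmb8 falling furthest in 2-N; the right panel holds the other 16, among them Isg15, Ifit3 and Rtp4 with 2-B1 highest.

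Isg15, Ifit3 and Rtp4, named here after their values were seen, did not hold that order, though 2-B1 was highest in each. Isg15 read -0.90, -3.68, -2.28 and -3.03 in iHAC2-iPS, Ifit3 -1.52, -4.07, -4.41 and -4.42 and Rtp4 -0.62, -3.32, -2.62 and -3.27. In Isg15 and Rtp4 2-E was second and 2-C6 lay below 2-N, by little in Rtp4. In Ifit3 the clones other than 2-B1 lay close together. Stat2 itself read 0.64, -0.61, 1.09 and 1.37 with 2-C6 lowest and 2-N highest. The iHAC1-iPS clones also divided, in an order likewise noticed in these data and given without a test. Clones 1-B and 1-C3 both lay above 1-A3 and 1-D6 in 21 of the same 31 genes, against 24.6% of probes. Both orders were seen in 14 genes, against 2.42% of probes. As the orders were picked from these values, the shares only describe them. Irf1 read 1.78, 3.45, 3.85 and 1.75 in iHAC1-iPS and Gbp2 -2.45, -0.14, 0.21 and -2.55. In these clones the fibroblast markers ran the other way, at 4.27, 3.67, 3.38 and 4.41, and the pluripotency markers were at -2.53, -0.74, 0.25 and -2.26. Clones 1-A3 and 1-D6 were thus high in fibroblast and low in pluripotency markers, and neither list's part in the order was tested. The order did not hold in Isg15, Usp18 or Ifit3, where 1-D6 read highest of the iHAC1-iPS clones.

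Against the iHAC1-iPS clones, which carry no shRNA, iHAC2-iPS clones had higher levels of many sensors, effectors and presentation genes. Of 46 genes 17 were called higher and 0 lower, where 11% of tested probes were called higher and 8.98% lower; the median log2 difference of the 46 was 0.94 against 0.03 over all tested probes. By role, 6 of 10 sensors, 1 of 4 transcription factors, 6 of 19 effectors, 1 of 5 GTPases and 3 of 8 presentation genes were called. Of the 17, 10 were called under every alternative tried (Ddx58, Oas1a, Stat2, Trim25, Bst2, Ifitm1, Ifitm3, Parp14, H2-K1 and Psmb9), and Zbp1, Oas2, Oas3, Oasl1, Parp9, Igtp and Tapbp lost the call under at least 1. In iHAC1-iPS against ES 0 genes were called higher and 8 lower, where 7.17% of tested probes were called higher and 7.13% lower, with a median of -0.50 against 0.04. Of these 8, Oas1a, Trim25 and Ifitm1 were called under every alternative tried, and Ddx58, Oas2, Oas3, Parp9 and Parp14 lost the call without B6ES and also with arrays blocked by slide, which left 3 in either case. Both comparisons share the iHAC1-iPS arrays, and markers of cell type move with both. The 7 pluripotency genes had a median difference of 5.66 in the former and -8.48 in the latter, except that Pou5f1 (Oct4), which the vectors also carry, was called the other way at -1.65 and 2.80. All 8 fibroblast genes were negative in the former, with a median of -0.97 and 2 called, and positive in the latter, with a median of 1.72 and 4 called. Their part in these differences was not tested.

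**Figure D4:**
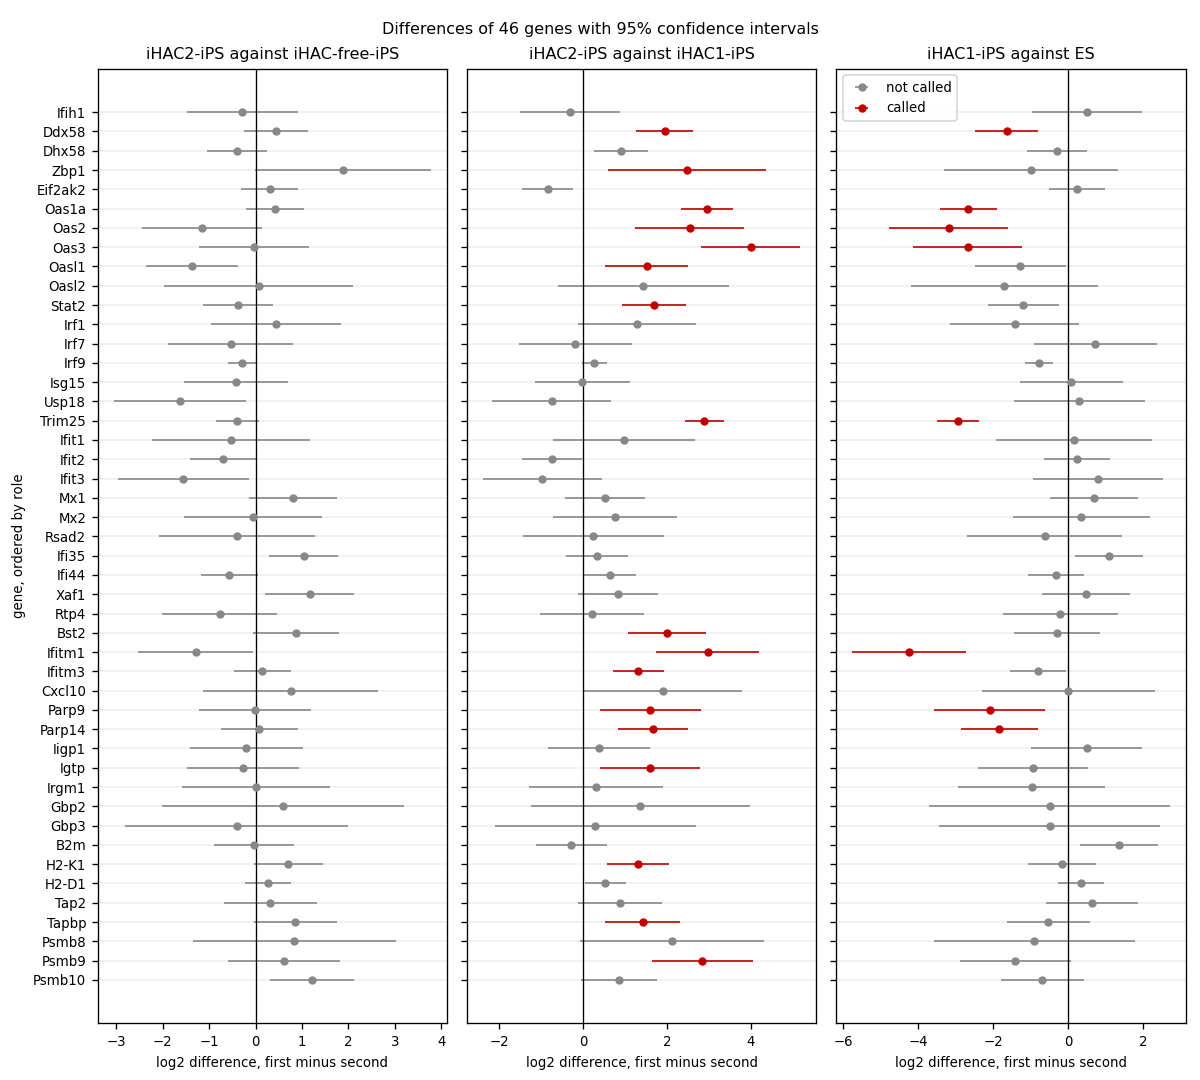
Log2 difference of each of the 46 genes (rows, by role) with its 95% confidence interval in 3 comparisons; red points were called. No point is red for iHAC2-iPS against iHAC-free, 17 are red and positive against iHAC1-iPS, and 8 are red and negative for iHAC1-iPS against ES.

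Of the 6 sensors called against iHAC1-iPS, 4 belong to the OAS family. Oas1a (probe at chr5:121348348-121348407, mm9) read -4.15, -3.58, -3.47 and -3.93 in iHAC1-iPS, -1.09, -0.44, -0.82 and -1.002 in iHAC2-iPS, -1.71 and -0.51 in ES and -0.74, -1.71, -1.16 and -1.41 in iHAC-free clones, with 0.19 in 20D17 and 2.48 in MEFs. It was 2.94 ± 0.28 (SE) above iHAC1-iPS in iHAC2-iPS (adjusted p = 5.5e-05, limma) and -2.67 ± 0.35 (SE) in iHAC1-iPS against ES (adjusted p = 0.00047). All iHAC1-iPS arrays lay below all others. Oas3 (probe at chr5:121203598-121203657) was not well above background in any iHAC1-iPS clone, at -7.37, -6.95, -7.61 and -7.73, and read -3.28, -5.37, -2.46 and -2.56 in iHAC2-iPS with 2-C6 also at background, -4.09 and -5.39 in ES and -3.79, -3.04, -3.40 and -3.30 in iHAC-free clones, with -4.08 in 20D17 and -2.89 in MEFs. iHAC2-iPS exceeded iHAC1-iPS by a bound of 6.19-fold, measured against the dimmest detectable signal (adjusted p = 0.00035, limma), and ES was at least 2.47-fold higher (adjusted p = 0.015). The bound of 6.19-fold is not a strict minimum, since its mean includes 2-C6 at background. Its other probe was at background on all 8 arrays of iHAC1-iPS and iHAC2-iPS, so no fold is given for it there.

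Oas2 (probe at chr5:121180434-121180493) was likewise at background in all iHAC1-iPS clones, at -6.72, -7.40, -7.38 and -7.64, against -3.84 and -4.36 in ES, -3.03 in 20D17 and -1.40 in MEFs. The bound was 2.46-fold higher in iHAC2-iPS, where 2 of 4 arrays were above background (adjusted p = 0.0065, limma). It is not a strict minimum, since its mean includes 2-B1 and 2-E at background. Clone 2-E, at -7.01, lay within the iHAC1-iPS range. Oas2 was at least 3.86-fold higher in ES (adjusted p = 0.0097, limma). Oasl1 was called higher in iHAC2-iPS against iHAC1-iPS, but all 8 arrays were not well above background, at -7.56, -5.88, -7.78 and -6.23 in iHAC1-iPS, so no fold is given; it read -5.17 and -6.00 in ES, -4.10 in 20D17 and 1.58 in MEFs. With another background correction Oas2, Oas3 and Oasl1 were the 3 genes that lost their call between iHAC2-iPS and iHAC1-iPS. Oasl2 overlapped between the groups and was not called, at -3.29, -1.21, -0.73 and -2.83 in iHAC1-iPS and 1.23, -0.82, 0.91 and -3.63 in iHAC2-iPS.

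Ddx58 (RIG-I, the sensor of RNA with a free triphosphate end; probe at chr4:40156918-40156977) read -2.78, -1.19, -2.14 and -2.29 in iHAC1-iPS, -0.53, 0.47, -0.54 and -0.02 in iHAC2-iPS, -0.52 and -0.40 in ES and -0.53, -0.95, -0.45 and -0.48 in iHAC-free clones, with -0.59 in 20D17 and 0.88 in MEFs. It was 1.95 ± 0.32 (SE) in iHAC2-iPS against iHAC1-iPS (adjusted p = 0.00088, limma) and -1.64 ± 0.39 (SE) in iHAC1-iPS against ES (adjusted p = 0.011), and the groups did not overlap in either. The call against ES was lost in 5 of 14 alternatives, among them those without either ES line. Its second probe gave -0.83 in the latter and missed the threshold (adjusted p = 0.073, limma). Zbp1 read -4.43, -2.32, -1.95 and -3.64 in iHAC1-iPS, -2.13 and -2.07 in ES, -0.98 in 20D17 and 0.41 in MEFs, and was 2.48 ± 0.87 (SE) in iHAC2-iPS against iHAC1-iPS (adjusted p = 0.041, limma) with 2-N inside the iHAC1-iPS range. Of the other sensors, Ifih1 (MDA5) and Dhx58 (LGP2) were not called by their brightest probes (the dim second probe of Ifih1, well above background in MEFs alone, went the other way), and Eif2ak2, the kinase PKR, was -0.85 in iHAC2-iPS against iHAC1-iPS (adjusted p = 0.032, limma), short of 2-fold.

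Of the transcription factors, Stat2 was called and Irf1, Irf7 and Irf9 were not. Stat2 (probe at chr10:127729181-127729240) read -0.93, -0.79, -1.04 and -1.52 in iHAC1-iPS, 0.64, -0.61, 1.09 and 1.37 in iHAC2-iPS, 0.04 and 0.20 in ES and 0.67, 1.24, 1.15 and 0.94 in iHAC-free clones, with 0.20 in 20D17 and 2.73 in MEFs. It was 1.70 ± 0.35 (SE) in iHAC2-iPS against iHAC1-iPS (adjusted p = 0.0035, limma), without overlap. Irf9, its partner in ISGF3, was -0.77 ± 0.17 (SE) in iHAC1-iPS against ES (adjusted p = 0.0082, limma), under 2-fold. Irf1 was 1.28 ± 0.64 (SE) in iHAC2-iPS against iHAC1-iPS (adjusted p = 0.13, limma) and was called without 2-N, at 1.88 ± 0.54 (SE, adjusted p = 0.023, limma).

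Trim25 and Ifitm1 were the effectors with the largest steps. Trim25, the ubiquitin ligase that activates RIG-I (probe at chr11:88881205-88881264), read -0.01, 0.08, 0.24 and -0.01 in iHAC1-iPS, 2.92, 2.54, 2.68 and 3.72 in iHAC2-iPS, 2.98 and 3.05 in ES and 3.35, 3.38, 3.30 and 3.40 in iHAC-free clones, with 3.35 in 20D17 and 2.93 in MEFs. It was 2.89 ± 0.21 (SE) in iHAC2-iPS against iHAC1-iPS (adjusted p = 1.1e-05, limma) and -2.94 ± 0.26 (SE) in iHAC1-iPS against ES (adjusted p = 5.1e-05). All iHAC1-iPS arrays lay below all others for this probe. Its probes differed against ES: in iHAC2-iPS the brighter gave -0.05 ± 0.26 and the other -2.09 ± 0.57 (SE, adjusted p = 0.038, limma). Ifitm1 (probe at chr7:148155455-148155514) read -1.71, -0.67, 1.29 and -1.66 in iHAC1-iPS, 3.21 and 3.90 in ES and 2.70 in 20D17. It was 2.97 ± 0.57 (SE) in iHAC2-iPS against iHAC1-iPS (adjusted p = 0.0022, limma), where 2-C6 met 1-C3 at 1.29, and -4.24 ± 0.69 (SE) in iHAC1-iPS against ES (adjusted p = 0.0017). The MEF level of Ifitm1, -1.32, lay within the iHAC1-iPS range.

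**Figure D5:**
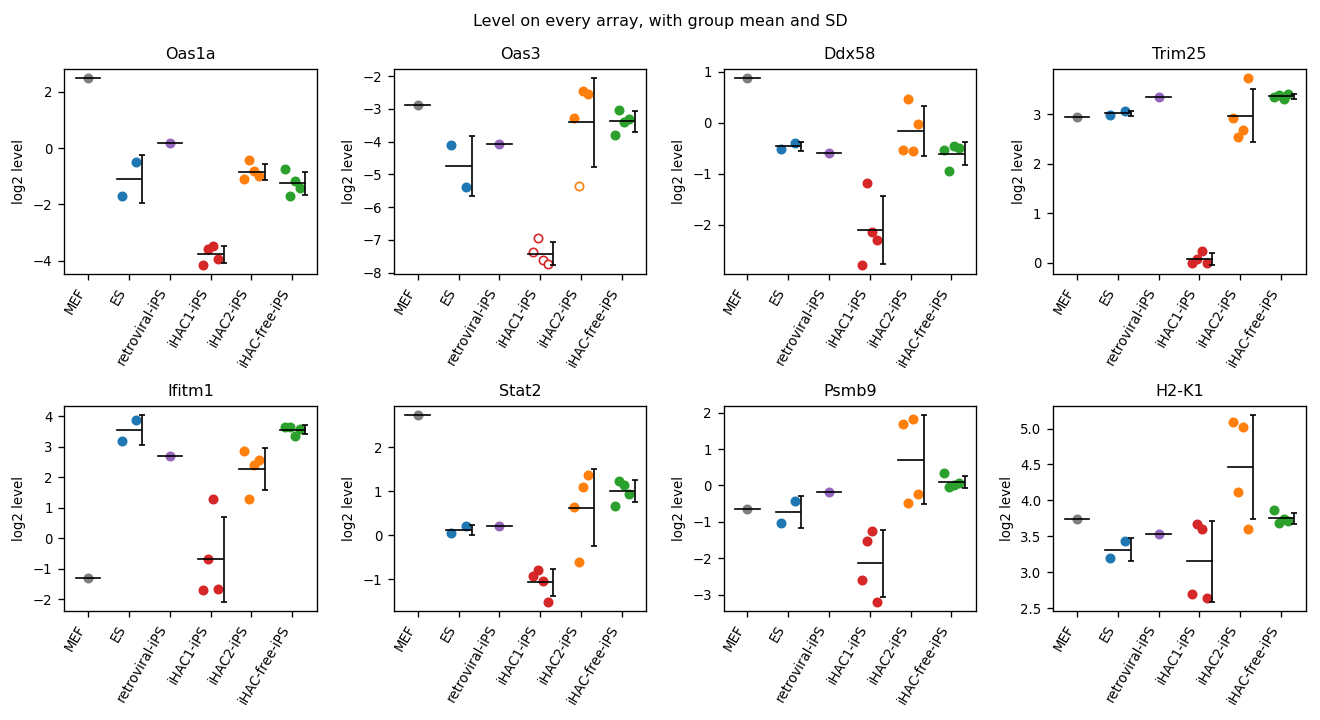
Log2 level of 8 genes on every array by group; black lines are group means with SD for groups of more than 1 array, and open circles are not well above background. The 4 iHAC1-iPS points lie below all iHAC2-iPS, iHAC-free and ES points for Oas1a, Oas3, Ddx58, Trim25 and Stat2, and the iHAC1-iPS points for H2-K1 lie on both sides of the ES points.

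Bst2 and Ifitm3 were higher in iHAC2-iPS than in iHAC1-iPS. Bst2 (probe at chr8:74058603-74058662) read 2.60, 4.78, 3.94 and 3.02 in iHAC1-iPS, 4.09 and 3.67 in ES, 4.32 in 20D17 and 6.29 in MEFs, and was 2.01 ± 0.43 (SE) in iHAC2-iPS against iHAC1-iPS (adjusted p = 0.004, limma), without overlap. Ifitm3, a restrictor of virus entry (probe at chr7:148195591-148195650), read 2.13, 3.48, 2.01 and 2.29 in iHAC1-iPS, 4.27, 3.73, 3.56 and 3.64 in iHAC2-iPS, 3.40 and 3.17 in ES and 3.61, 3.68, 3.68 and 3.63 in iHAC-free clones, with 4.04 in 20D17 and 5.38 in MEFs, and was 1.32 ± 0.28 (SE) in that comparison (adjusted p = 0.004, limma). Every iHAC2-iPS array lay above every iHAC1-iPS array for both genes, with 1-B the closest in both.

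The ADP-ribosyltransferases Parp9 and Parp14, partners in the interferon response, moved alike. Parp14 (probe at chr16:35832992-35833051) read -2.52, -1.21, -1.26 and -2.12 in iHAC1-iPS, 0.69, -0.13, -0.08 and -0.92 in iHAC2-iPS, 0.13 and 0.00 in ES and 0.54, -0.61, -0.18 and -0.54 in iHAC-free clones, with 1.02 in 20D17 and 2.33 in MEFs. It was 1.67 ± 0.38 (SE) in iHAC2-iPS against iHAC1-iPS (adjusted p = 0.006, limma) and -1.84 ± 0.47 (SE) in iHAC1-iPS against ES (adjusted p = 0.017), without overlap. The latter call was lost in 3 of 14 alternatives, without either ES line and with arrays blocked by slide. Parp9 (probe at chr16:35972333-35972392) read -3.89, -1.75, -1.95 and -3.28 in iHAC1-iPS, -0.26, -1.27, -0.38 and -2.55 in iHAC2-iPS, -0.59 and -0.64 in ES and -0.45, -1.59, -1.09 and -1.30 in iHAC-free clones, with -0.76 in 20D17 and 0.80 in MEFs. It was 1.60 ± 0.55 (SE) (adjusted p = 0.039) and -2.10 ± 0.68 (SE) (adjusted p = 0.046) in the same comparisons by limma, and 2-N lay inside the iHAC1-iPS range. The call was lost in 6 of 16 alternatives against iHAC1-iPS and in 8 of 14 against ES.

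The remaining effectors, apart from Ifi35 against ES, gave no call in any comparison. The type I targets Isg15, Usp18, Ifit1, Ifit2, Ifit3, Rsad2, Mx2 and Rtp4 overlapped between iHAC1-iPS and iHAC2-iPS. Isg15 read -2.31, -2.26, -3.00 and -2.24 in iHAC1-iPS and -1.41, -2.49, -2.03 and -2.29 in iHAC-free clones, Usp18 -4.41, -4.38, -3.99 and -3.80 in iHAC1-iPS with -2.14 in 20D17, and Ifit3 -2.59, -2.80, -3.06 and -2.07 in iHAC1-iPS with -4.51 and -2.32 in ES, -1.38 in 20D17 and 4.15 in MEFs. Xaf1 read -3.54, -2.68, -3.37 and -2.93 in iHAC1-iPS, -3.78 and -3.43 in ES, -2.95 in 20D17 and 1.18 in MEFs. Without 2-B1, Ifit2 and Ifit3 were called lower in iHAC2-iPS than in iHAC1-iPS, at -1.12 ± 0.21 (SE, adjusted p = 0.0033, limma) and -1.67 ± 0.49 (SE, adjusted p = 0.023, limma). Cxcl10, a T-cell attractant, ranged within iHAC2-iPS from -4.20 in 2-N to 0.35 in 2-B1. Mx1, defective in C57BL/6, and Ifi44 were at background on all HAC-line and ES arrays.

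Of the GTPases, Igtp (Irgm3, which guards vacuole membranes; probe at chr11:58020927-58020986) was called. It read -2.20, -0.24, -0.02 and -1.76 in iHAC1-iPS, 1.49, -0.07, 1.32 and -0.58 in iHAC2-iPS, -0.20 and -0.03 in ES and 1.43, 0.73, 0.54 and 0.54 in iHAC-free clones, with 0.08 in 20D17 and 3.58 in MEFs, and was 1.60 ± 0.55 (SE) in iHAC2-iPS against iHAC1-iPS (adjusted p = 0.039, limma). The groups overlapped, since 2-C6 and 2-N did not exceed 1-C3. Gbp2, Gbp3 and Irgm1 were not called and ranged widely between clones, with 2-N the lowest of all 16 arrays in each. Without 2-N, Gbp2 was called in iHAC2-iPS against iHAC1-iPS, at 2.68 ± 0.86 (SE, adjusted p = 0.036, limma). Iigp1 was at background outside MEFs and 20D17.

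In antigen presentation, Psmb9, H2-K1 and Tapbp were higher in iHAC2-iPS than in iHAC1-iPS. All but B2m and Psmb10 of these genes lie on chromosome 17. Psmb9, the immunoproteasome subunit LMP2 (probe at chr17:34319174-34319233), read -2.59, -1.52, -1.25 and -3.20 in iHAC1-iPS, 1.69, -0.47, 1.83 and -0.22 in iHAC2-iPS, -1.03 and -0.42 in ES and 0.35, -0.03, 0.00 and 0.07 in iHAC-free clones, with -0.18 in 20D17 and -0.65 in MEFs. It was 2.84 ± 0.55 (SE) (adjusted p = 0.0025, limma), without overlap. H2-K1, a class I heavy chain (probe at chr17:34133055-34133114), read 2.69, 3.67, 3.61 and 2.64 in iHAC1-iPS, 5.10, 4.12, 5.03 and 3.60 in iHAC2-iPS, 3.20 and 3.43 in ES and 3.86, 3.69, 3.74 and 3.71 in iHAC-free clones, with 3.54 in 20D17 and 3.74 in MEFs, and was 1.31 ± 0.34 (SE) (adjusted p = 0.011, limma). Only 2-B1, 2-C6 and 2-E exceeded all iHAC1-iPS arrays. Of its other 3 probes, 2 were also called and 1 gave 0.42 (adjusted p = 0.18, limma), and class I genes are close in sequence, so a probe may read several of them. Tapbp read 1.57, 2.06, 2.12 and 1.36 in iHAC1-iPS, 1.83 and 2.80 in ES, 2.74 in 20D17 and 3.74 in MEFs, and was 1.42 ± 0.41 (SE) (adjusted p = 0.019, limma); every iHAC2-iPS array lay above every iHAC1-iPS array, and its other probe gave 0.68, short of 2-fold.

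Psmb10 read 3.43, 5.01, 4.88 and 4.37 in iHAC1-iPS, 5.08 and 5.16 in ES, 4.70 in 20D17 and 4.54 in MEFs, and was not called. B2m, the light chain shared by all class I molecules, was not called either and read 3.15, 3.21, 2.64 and 3.29 in iHAC1-iPS and 3.84, 2.60, 2.77 and 1.96 in iHAC2-iPS against 0.99 and 2.46 in ES, where B6ES was lowest of all 16 arrays. The constitutive proteasome subunits Psmb5, Psmb6 and Psmb7, which Psmb8, Psmb9 and Psmb10 replace, were not called in any of the 5 comparisons and differed by between -0.43 and 0.33.

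Against ES, a single gene of the 46 was called in iHAC2-iPS clones. Ifi35 was called higher and none lower, where 3.52% of tested probes were called higher and 3.28% lower. At an unadjusted p under 0.05 by limma there were 9 genes. The confidence interval stayed within 2-fold in either direction for 2 of the 46 genes, and its half-width had a median of 1.41. For most of the 46 genes a change of 2-fold was therefore not detectable, and a missing call does not show that the groups were alike. Ifi35 (probe at chr11:101319011-101319070) read -1.47 and -0.33 in ES, 0.35, 0.39, -0.16 and 0.10 in iHAC1-iPS, -0.03 in 20D17 and 2.25 in MEFs, and was 1.40 ± 0.42 (SE) in iHAC2-iPS against ES (adjusted p = 0.049, limma), with 2-N between both ES lines. The call was lost under 7 of 14 alternatives. Without 2-N, 6 genes were called higher (Ifi35, Bst2, Cxcl10, H2-D1, H2-K1 and Tap2). Calls rose over the whole array as well, with 1479 of 31423 tested probes higher without 2-N against 1107 with all clones. With all 4 clones, the 8 presentation genes each had a positive difference from ES, with a median of 1.11 against 0.06 over all tested probes, and none was called. In iHAC-free clones against ES, 0 genes were called higher and 0 lower by limma, where 0.188% and 0.175% of tested probes were, and 5 had an unadjusted p under 0.05. The median of the 46 genes was 0.42 in iHAC-free clones and 0.40 in iHAC2-iPS, both against the same ES arrays.

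Other genes of the pathway were read from fixed lists. Of 16 receptors and signalling genes, 5 were called higher in iHAC1-iPS against ES: Irf2, an antagonist of Irf1 (2.32), the receptor chains Ifngr1 (1.18), Ifngr2 (1.03) and Ifnar2 (1.00) and the kinase Jak2 (1.16). Of all tested probes, 7.17% were called higher there. In iHAC2-iPS against iHAC1-iPS the shares were 11% higher and 8.98% lower. In iHAC2-iPS against iHAC1-iPS, Tyk2 was called higher (1.17) and Irf2 lower (-1.19), and neither iHAC2-iPS against iHAC-free nor against ES gave a call in this list. Of the ligands with a probe here, Ifng and Ifna4 were well above background on no array and Ifnb1 in MEFs alone, while 1 of 2 Ifna2 probes was dim everywhere, between -5.72 and -4.43, and was not well above background on any iHAC2-iPS array. Of 15 nucleic acid sensing genes, none was called in iHAC2-iPS against iHAC-free or against ES, and Tlr7, an RNA sensor of endosomes, was called lower against iHAC1-iPS with all 4 iHAC2-iPS arrays and 2 of 4 iHAC1-iPS arrays at background.

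Of 13 further presentation genes tested, 4 were called higher in iHAC2-iPS against ES and 6 against iHAC1-iPS, and none against iHAC-free clones. Of all tested probes, 3.52%, 11% and 0.213% were called higher in these comparisons. Tap1, the partner of Tap2 in the peptide transporter, read -3.37 and -2.81 in ES, -0.55, -1.89, 0.44 and -1.68 in iHAC2-iPS and -1.98, -0.91, -1.62 and -1.41 in iHAC-free clones, a difference of 2.17 ± 0.56 (SE) from ES (adjusted p = 0.030, limma). The class II chain H2-Ab1 was 2.60 ± 0.40 (SE) above ES in iHAC2-iPS (adjusted p = 0.0054, limma), from -1.98 and -2.55 to 0.33, 0.12, 1.19 and -0.31, while the class II chain H2-Aa and the class II regulator Ciita were at background on all 16 arrays. Another class II chain, H2-Eb1, was well above background on all 16 and was 1.12 ± 0.31 (SE) above ES in iHAC2-iPS (adjusted p = 0.040, limma), and Cd74, the invariant chain, was well above background on 14 of 16.

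Trp53, the shRNA target, checks the labels in part. Its brighter probe read 0.61, 1.41, 0.70 and 1.07 in iHAC2-iPS, 1.92, 0.92, 1.92 and 1.21 in iHAC-free clones, 0.96, 1.03, 1.25 and 1.12 in iHAC1-iPS, 2.19 and 2.04 in ES, 1.60 in 20D17 and 0.46 in MEFs. Clones 2-B1, 2-E and 2-N were below the iHAC-free clone derived from them and 2-C6 above its own. The difference was -0.54 ± 0.23 (SE) from iHAC-free clones (adjusted p = 0.26, limma), -0.15 from iHAC1-iPS (adjusted p = 0.66) and -1.17 ± 0.30 (SE) from ES (adjusted p = 0.029), and the iHAC1-iPS clones, with no shRNA, were also called lower than ES, at -1.02 (adjusted p = 0.029). The other probe gave 0.20 against iHAC-free clones, the opposite sign. Cdkn1a, the p53 target p21, was 0.44 in iHAC2-iPS against iHAC-free clones (adjusted p = 0.30, limma). Of 12 genes in the list of Trp53 and its targets, 10 had positive and 2 negative differences in that comparison, with a median of 0.38 against 0.04 over all tested probes, 5 at an unadjusted p under 0.05 and none called. Trp53 mRNA was thus not called lower in the clones that carry the shRNA than in those that lost it.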

How the data were processed

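Total RNA from 16 samples was labelled with Cy3 and hybridised once each to 1-colour Agilent whole mouse genome arrays. The deposited scanner files hold spot intensities, which per the file headers were background-subtracted and detrended by Feature Extraction (10.7.1.1 or 10.7.3.1) and not scaled between arrays. The deposited value table holds log2 values that the authors normalised in GeneSpring GX and centred for each probe. It was used as an alternative, and differences between its arrays correlated with those used here at r of 0.999997 or more. Probe positions are mm9, as the files give them, and promoter sequences are RefSeq GRCm38.p6, with no coordinates converted.

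Outlier-flagged and control spots were left out, spots of a probe were averaged, and log2 processed signal minus each array's 75th percentile was taken as the level. The 31423 probes well above background on at least 1 array were fitted in limma 3.58.1 (R 4.3.3) with 6 groups in 1 model and 5 comparisons, and called at an adjusted p under 0.05 with at least 2-fold. The fit was tested on simulated data first. Where a whole group was not well above background, a fold is a lower bound. It uses the mean of every array of the other group, also of those at background. Genes with several probes were read by the probe of highest mean. Members called in any comparison, and the 5 highest and 5 lowest in iHAC2-iPS against iHAC-free, are given on every array, and others are named from fixed lists. The genes, lists and tests were chosen with earlier results of these data known. Per the study's methods and clone lists, iHAC1 and iHAC2 lines came from separate colonies and each iHAC-free clone was sorted from the iHAC2-iPS clone paired with it here. Deviations from the group means correlated at r of -0.22 to 0.08 within these pairs. The fit without the pairing was the one reported, and that with the line as a block an alternative. Alternatives were normexp background correction, quantile normalisation, filters, second probes, the deposited values, only the compared groups, slide and line as blocks, and leaving out each array.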

Additional observations from a re-analysis of the deposited data

Results flagged for a closer look

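Among 66 groups of 4 arrays examined (22 named genes in the iHAC1-iPS, iHAC2-iPS and iHAC-free groups), 3 held 1 array far from the others by Dixon's ratio. Chance flags about 1 in 20 such groups, that is 3.3 here. Ifit3, an interferon-induced RNA-binding partner, read -1.52 in 2-B1 against -4.42 to -4.07 in the other iHAC2-iPS clones. Ifi35 read -0.52 in 2-N against 0.80 to 0.91 in the other iHAC2-iPS clones, and it was called between iHAC2-iPS and iHAC-free clones without that array. Ddx58 (RIG-I) read -0.95 in F-C5 against -0.53 to -0.45 in the other iHAC-free clones. All were well above background.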

How the results depend on the processing

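Of 272 recomputed counts and medians over the 46 genes and Trp53 differences, 242 kept their direction and their side of the threshold or stayed within the limits set for counts and medians, 23 counts or medians moved, 6 lost significance and 1 changed sign. Single called genes held less often: the call was kept under every alternative by 10 of 17 genes in iHAC2-iPS against iHAC1-iPS, 3 of 8 in iHAC1-iPS against ES and 0 of 1 in iHAC2-iPS against ES. In iHAC2-iPS against iHAC-free clones no alternative with all arrays gave a called gene. Leaving out 1 array gave 0 to 1 higher (Ifi35 without 2-N) and 0 to 1 lower (Ifit2 without 2-B1), with a median of -0.33 to 0.30 over the 46 genes. Trp53 turned to 0.20 with its second probe, and over all alternatives it ranged from -0.73 to 0.20 with adjusted p from 0.11 to 0.50 by limma.

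Against ES, the count of genes higher in iHAC2-iPS was 2 with normexp, 2 with no filter, 2 with a strict filter, 4 with the slide as a block, 0 with quantile normalisation and 0 with only the compared groups, and from 0 to 6 leaving out 1 array, 6 being without 2-N. Over all tested probes, 1479 were called higher without 2-N, against 1107 with all arrays. Reading genes by the second probe gave 1 gene lower (Trim25). Trp53 there was -1.17 but not past the threshold with only the compared groups, -0.30 with its second probe, and -1.32 to -1.06 leaving out 1 array. In iHAC2-iPS against iHAC1-iPS, 12 genes were higher with only the compared groups, where Igtp, Oasl1, Parp9, Tapbp and Zbp1 lost the call, and leaving out 1 array gave 13 to 22 higher (22 without 2-N) and 0 to 2 lower (Ifit2 and Ifit3 without 2-B1, Eif2ak2 without 2-C6). In iHAC1-iPS against ES, 3 were lower with the slide as a block, where Ddx58, Oas2, Oas3, Parp9 and Parp14 lost the call, and 3 to 9 leaving out 1 array, the same 5 genes being lost without B6ES. The genes higher there were 1 with normexp, 1 with a strict filter (B2m in both) and 0 to 1 leaving out 1 array (B2m without TT2).

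With the parental line as a replicate block, iHAC2-iPS against iHAC-free gave 0 and 0 genes, a median of -0.02 and -0.54 for Trp53 (adjusted p = 0.34, limma). Over all probes this comparison had 67 called higher and 189 lower, 38 and 101 with the replicate block, 44 and 134 with slides as blocks, 37 and 67 with only the compared groups and 104 and 154 with normexp, which moved the median over all probes from 0.04 to 0.15. With 4 clones, 2 ES lines and dim probes near background, small changes were not detectable.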
